A study of Mus musculus with 7 samples.

Results

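Genes of lymphocyte killing were followed through 7 tumour RNA libraries. The 10 genes were the granzymes Gzma, Gzmb, Gzmc, Gzmd and Gzme, the pore-forming perforin Prf1, the granule proteins Nkg7 and Ctsw, and the receptors Klrk1 and Klrd1. They were chosen by name, as the rows whose gene identifier, with the version dropped, maps to these symbols, and each symbol matched 1 row, so that the set holds 10 of the 55487 genes in the deposited table. BALB/c mice (genotype WT) carried the tumours in a mammary fat pad, grown from 4T1-12b(luc) cells, a luciferase-carrying derivative of the mouse mammary carcinoma line 4T1. Once the tumours measured about 150 mm3 they received 6 intratumoral injections of 50 µl, 1 every other day, and the samples are labelled Day 12. The TIS sEV group (3 libraries) was given small extracellular vesicles from 4T1 cells made senescent with 100 ng/ml nocodazole, an inhibitor of microtubule assembly. The Cont sEV group (1 library) was given vesicles from 4T1 cells treated with DMSO, the solvent. Both kinds of donor cells were treated for 72 h and then left for 72 h without the agent before the vesicles were collected, and the Saline group (3 libraries) was given saline. The series asks what vesicles of senescent tumour cells do to growing tumours. The labels number the replicates without saying that each is a separate animal, so the p-values reflect spread among these libraries alone and part of it may be technical. The table heads the vesicle columns with abbreviations, CE and NcE, which were read as Cont sEV and TIS sEV because nocodazole made the donors of the TIS vesicles. The labels do not spell this reading out, and all vesicle results depend on it.

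Cytotoxic T cells and natural killer (NK) cells carry granules in which granzymes, a family of serine proteases, are stored beside perforin. When a killer cell meets its target the granules are released into the contact, perforin opens the target's membrane, and the granzymes enter and cut proteins that start cell death. Killer cells choose their targets partly through lectin-like receptors such as the products of Klrk1 and Klrd1, which read stress ligands and non-classical MHC molecules on the target's surface. Mice carry a larger set of granzymes than humans, and Gzmb, Gzmc, Gzmd, Gzme, Gzmf and Gzmg lie side by side in 1 cluster of related genes.

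The sequences of that cluster are shown because their likeness limits how well a read can be given to 1 granzyme. The lines hold the first 90 coding bases of each gene, built from the GENCODE M21 annotation of GRCm38, with capitals at bases that differ from Gzmd.
Gzmd: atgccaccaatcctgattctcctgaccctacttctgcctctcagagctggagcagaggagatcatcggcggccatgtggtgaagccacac
Gzme: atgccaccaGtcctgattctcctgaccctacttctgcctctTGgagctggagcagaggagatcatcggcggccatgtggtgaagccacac
Gzmg: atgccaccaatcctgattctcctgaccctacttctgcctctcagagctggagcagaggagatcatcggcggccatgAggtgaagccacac
Gzmf: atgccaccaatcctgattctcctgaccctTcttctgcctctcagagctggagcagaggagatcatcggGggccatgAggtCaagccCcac
Gzmc: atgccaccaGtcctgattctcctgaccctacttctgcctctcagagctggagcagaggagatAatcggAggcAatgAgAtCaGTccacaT
Gzmb: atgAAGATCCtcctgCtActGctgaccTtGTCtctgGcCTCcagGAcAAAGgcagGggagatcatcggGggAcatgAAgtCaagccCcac
Over these 90 bases Gzmg differed from Gzmd at 1 position, Gzme at 3, Gzmf at 5, Gzmc at 10 and Gzmb at 31. Over the whole coding sequence Gzmd, Gzme, Gzmf and Gzmg were 83.6% to 93.3% identical to one another, with Gzmd and Gzme as the closest pair. Gzmc was nearer to Gzmb, at 76.2%, than to any of these 4, at 71.5% to 73.4%. Gzmb and Gzmd were 65.3% identical, whereas Gzma and Gzmb, which lie on different chromosomes, were 54.6% identical. Of all stretches of 31 bases in the annotated transcripts, 42.1% of those of Gzme, 38.2% of those of Gzmd and 14.8% of those of Gzmc also occurred in a transcript of another gene. The same share was 1.35% for Gzmb, 0.392% for Prf1, 0.0138% for Klrk1 and 0 for Gzma, Nkg7, Klrd1 and Ctsw. The levels of Gzmc, Gzmd and Gzme are therefore uncertain as single values, since the quantification could split shared reads among them.

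The promoters of Gzmd and Gzme, the closest pair of copies and the pair whose balance differed in the Cont sEV library, are shown beside those of Gzmb, from the same cluster, and Nkg7, the member that was highest in TIS sEV relative to Saline once size factors were used. Each line runs from 250 bases before to 50 bases after the start of the gene (RefSeq, GRCm38.p6). The windows are chr14:56132544-56132843 for Gzmd, chr14:56120576-56120875 for Gzme and chr14:56262285-56262584 for Gzmb, all on the minus strand, and chr7:43436888-43437187 for Nkg7 on the plus strand. Capitals mark matches, on either strand, to AGGTGT, the core bound by T-box factors, to TGTGGT, the core bound by RUNX factors, or to TGANTCA, the AP-1 site.
Gzmd: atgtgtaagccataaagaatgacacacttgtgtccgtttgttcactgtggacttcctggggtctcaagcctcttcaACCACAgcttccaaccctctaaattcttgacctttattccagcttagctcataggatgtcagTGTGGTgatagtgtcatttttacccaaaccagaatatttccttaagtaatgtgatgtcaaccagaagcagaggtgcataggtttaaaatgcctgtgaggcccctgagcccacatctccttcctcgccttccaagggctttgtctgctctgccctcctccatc
Gzme: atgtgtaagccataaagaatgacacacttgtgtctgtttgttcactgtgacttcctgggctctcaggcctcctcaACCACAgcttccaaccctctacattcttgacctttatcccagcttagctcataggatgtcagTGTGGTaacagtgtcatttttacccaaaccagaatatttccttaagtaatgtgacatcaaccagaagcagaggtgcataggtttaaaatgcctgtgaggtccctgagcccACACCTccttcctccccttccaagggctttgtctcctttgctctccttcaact
Gzmb: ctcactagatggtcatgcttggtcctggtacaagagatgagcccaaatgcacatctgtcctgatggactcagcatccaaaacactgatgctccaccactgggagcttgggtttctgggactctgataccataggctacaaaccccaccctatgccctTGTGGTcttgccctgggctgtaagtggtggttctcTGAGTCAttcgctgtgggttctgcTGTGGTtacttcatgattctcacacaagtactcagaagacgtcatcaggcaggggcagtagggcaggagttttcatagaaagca
Nkg7: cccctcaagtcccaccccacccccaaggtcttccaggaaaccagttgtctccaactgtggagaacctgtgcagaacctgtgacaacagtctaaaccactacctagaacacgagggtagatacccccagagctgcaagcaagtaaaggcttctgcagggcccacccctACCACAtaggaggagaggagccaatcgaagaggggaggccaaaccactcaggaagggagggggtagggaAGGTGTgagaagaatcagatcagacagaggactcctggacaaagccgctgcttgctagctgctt
RefSeq promoters were found for 8 of the 10 members, all but Klrd1 and Ctsw. The RUNX letters occurred in 8 of these 8 windows, against 16.8% of all 32851 promoters, and the T-box letters in 5 of 8 (Gzma, Gzmc, Gzme, Prf1 and Nkg7), against 13.7%. The AP-1 letters occurred in 2 of 8 (Gzmb and Klrk1), against 7.81%, and TATAAA in 0 of 8, against 13.6%. AGGTGT and TGTGGT can share letters, but in the member promoters no match of 1 motif overlapped that of another. The promoters of Gzmd and Gzme were 93.4% identical, those of Gzmc and Gzmd 82.7% and those of Gzmb and Gzmd 43.5%, so the granzyme windows are not independent examples. A match describes the letters of a window and is not evidence of binding.

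The values are TPM, transcript abundance corrected for transcript length and scaled to the same total in every library, so levels of different genes can be compared, but the sequencing depth is unknown and no counting error can be given. TIS sEV replicate 2 stood apart. Its TPM went to nuclear ribosomal RNA genes for 22.9% and to nuclear protein-coding genes for 28.6%, against 0.807% to 2.40% and 56.8% to 74.7% in the other 6 libraries, which lowers the TPM of nearly every other gene in it. Differences were therefore also taken relative to the median gene, whose log2 difference was -0.62 for TIS sEV against Saline, -0.33 for Cont sEV against Saline and -0.29 for TIS sEV against Cont sEV, and after division by median-of-ratios size factors, which were 0.369 for that library and 0.986 to 1.496 for the others. The tissue label was checked against 7 epithelial genes, Krt18 among them, a keratin of simple epithelia. Their summed TPM was 525 to 2435 in TIS sEV, 2678 in Cont sEV and 1439 to 4272 in Saline libraries, so tumour epithelium was present in each.

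All 10 genes were detected in every library, at low to moderate levels. No member was called between TIS sEV and Saline tumours: 0 of 10 had an adjusted p under 0.05 in limma's moderated test on log2(TPM + 1), where 0.514% of the 12058 genes tested did (62 genes). In this fit the spread used for a gene was that of its expression level and not its own. At an unadjusted p under 0.05 the count of members was also 0, and the exact two-sided permutation tests over the 3 and 3 libraries gave p of 0.4 to 0.9, where 0.1 is the smallest value they can give. All 10 members passed the filter of at least 1 TPM in at least 3 libraries. The median fitted log2 difference of the 10 was -0.30, which is 0.31 above the median of all genes tested. In this fit 7 of the 10 lay above that median. The added 1 shrinks differences of low genes, the library-wide drop of TIS sEV replicate 2 included, which can by itself place a low gene above it. This limits every TPM-based value relative to the median gene given here. With size factors Prf1 (-0.012), Gzmb (-0.29), Gzmc (-0.76) and Gzmd (-0.22) lay below the median gene and the other members above it. In bulk tumour RNA, fewer cells of a type and less RNA per cell cannot be told apart, so none of these values says whether killer cells were more numerous or more active.

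**Figure D1:**
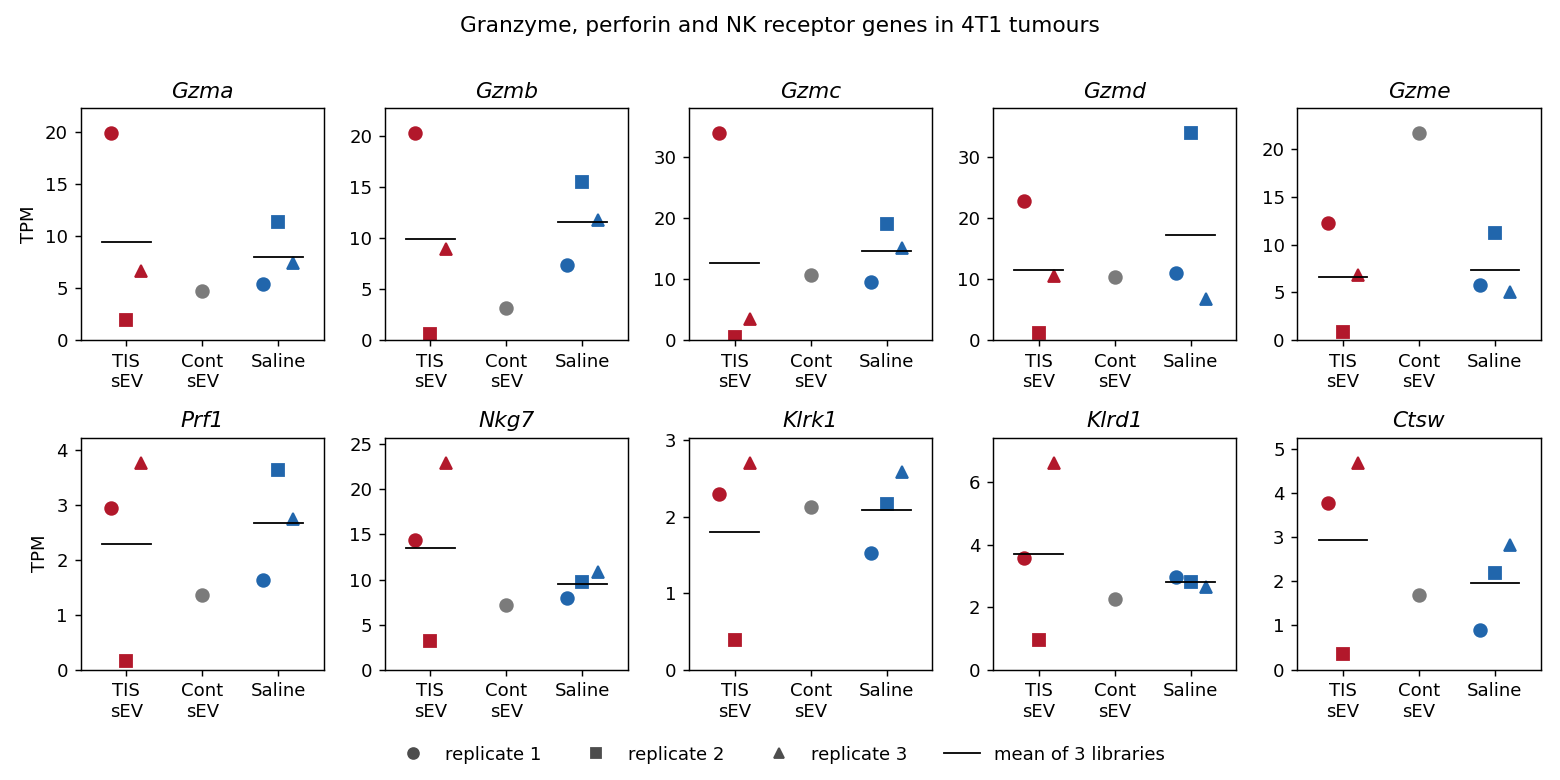
TPM of each of the 10 genes (vertical axis, linear, from 0) in the TIS sEV, Cont sEV and Saline libraries (horizontal axis), with marker shape for the replicate number and a line at the mean of groups of 3. TIS sEV replicate 2 was the lowest library for every gene, TIS sEV replicate 1 the highest for Gzma, Gzmb and Gzmc, TIS sEV replicate 3 the highest for the genes of the lower row, and the Cont sEV library the highest for Gzme.

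For Gzma and Gzmb, the best-known granzymes, the TIS sEV libraries spanned the range of the Saline libraries and more. Gzma (chromosome 13, 113093825 to 113100981, minus strand, GRCm38), a granzyme that cuts after basic residues, was at 19.9, 1.92 and 6.60 TPM in TIS sEV replicates 1 to 3, 4.69 TPM in Cont sEV and 5.35, 11.4 and 7.38 TPM in Saline replicates 1 to 3. Gzmb (chromosome 14, 56258838 to 56262260, minus strand), which cuts after aspartate and activates caspases, was at 20.3, 0.558 and 8.99 TPM in TIS sEV, 3.19 TPM in Cont sEV and 7.42, 15.5 and 11.8 TPM in Saline. For both genes TIS sEV replicate 1 was the highest and TIS sEV replicate 2 the lowest of all libraries, so the groups overlapped fully. The log2 differences of TIS sEV against Saline were -0.17 for Gzma (SE 0.64, limma adjusted p = 0.872) and -0.81 for Gzmb (SE 0.64, limma adjusted p = 0.505), or 0.45 and -0.19 relative to the median gene. The direction of both turned without TIS sEV replicate 2, to 0.54 for Gzma and 0.27 for Gzmb, and that of Gzma also without Saline replicate 2, to 0.087.

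The other members from the cluster varied widely too. Within TIS sEV the highest over the lowest TPM was 64.3 for Gzmc, 19.5 for Gzmd and 15.2 for Gzme, against 36.4 for Gzmb. Gzmc (chromosome 14, 56231441 to 56234656, minus strand), found in activated mouse T cells, was at 33.9, 0.528 and 3.52 TPM in TIS sEV, 10.7 TPM in Cont sEV and 9.57, 19.1 and 15.1 TPM in Saline. TIS sEV replicate 1 was above all Saline libraries, whereas TIS sEV replicates 2 and 3 were below them. Its log2 difference of -1.27 (SE 0.65, limma adjusted p = 0.476) was the most negative of the 10 members, and it was the 1 member called under an alternative: without TIS sEV replicate 1 it was -2.52 (SE 0.67, limma adjusted p = 0.0173), in a setting where 2.93% of all genes tested passed. Under the other alternatives its limma adjusted p was 0.455 to 0.978. Without TIS sEV replicate 2 the difference was -0.26 (limma adjusted p = 0.901), so the call rests on which TIS sEV library is left out.

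Gzmd (chromosome 14, 56129556 to 56132608, minus strand) was at 22.7, 1.17 and 10.4 TPM in TIS sEV, 10.3 TPM in Cont sEV and 10.9, 33.9 and 6.69 TPM in Saline. Saline replicate 2 was high for this gene, and the Saline libraries alone differed by a factor of 5.06, against 1.72 for the median of all genes tested. Gzme (chromosome 14, 56117626 to 56120625, minus strand), its nearest copy, was at 12.2, 0.805 and 6.83 TPM in TIS sEV, 21.7 TPM in Cont sEV and 5.76, 11.2 and 5.02 TPM in Saline. Here the single Cont sEV library was the highest of all 7, and the TIS sEV libraries lay on both sides of the Saline libraries. The log2 differences of TIS sEV against Saline were -0.82 for Gzmd (SE 0.66, limma adjusted p = 0.506) and -0.47 for Gzme (SE 0.64, limma adjusted p = 0.653), and without TIS sEV replicate 2 both turned, to 0.16 and 0.36.

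Because the copies share sequence, Gzmc to Gzmg and Gzmn were also summed. The sum was 103, 6.37 and 53.3 TPM in TIS sEV, 53.7 TPM in Cont sEV and 55.0, 149 and 40.1 TPM in Saline. The Cont sEV value lay within the Saline range, so the high Gzme of that library was not seen in the sum. For TIS sEV against Saline the sum differed by -1.02 log2 units (SE 0.64, limma adjusted p = 0.476).

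The make-up of the granzyme pool differed between libraries. Gzme made up 8.53%, 9.09% and 9.90% of the summed TPM of Gzma to Gzmg in TIS sEV, 35.2% in Cont sEV and 8.49%, 6.37% and 8.47% in Saline. Its share was thus alike in the TIS sEV and Saline libraries and far higher in the 1 Cont sEV library, where the ratio of Gzme to Gzmd was 2.10, against 0.538 to 0.689 in TIS sEV and 0.331 to 0.751 in Saline. Gzmc held 23.7%, 5.96% and 5.10% in TIS sEV, 17.3% in Cont sEV and 14.1%, 10.8% and 25.4% in Saline. Gzmf, a copy outside the 10 genes, held 10.5%, 37.9% and 42.7% in TIS sEV, 14.7% in Cont sEV and 22.0%, 26.8% and 17.1% in Saline. TIS sEV replicates 2 and 3 were thus poor in Gzmc and rich in Gzmf, and TIS sEV replicate 1 was the opposite. These shares were not tested, and they move with any misassignment of reads among the copies.

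**Figure D2:**
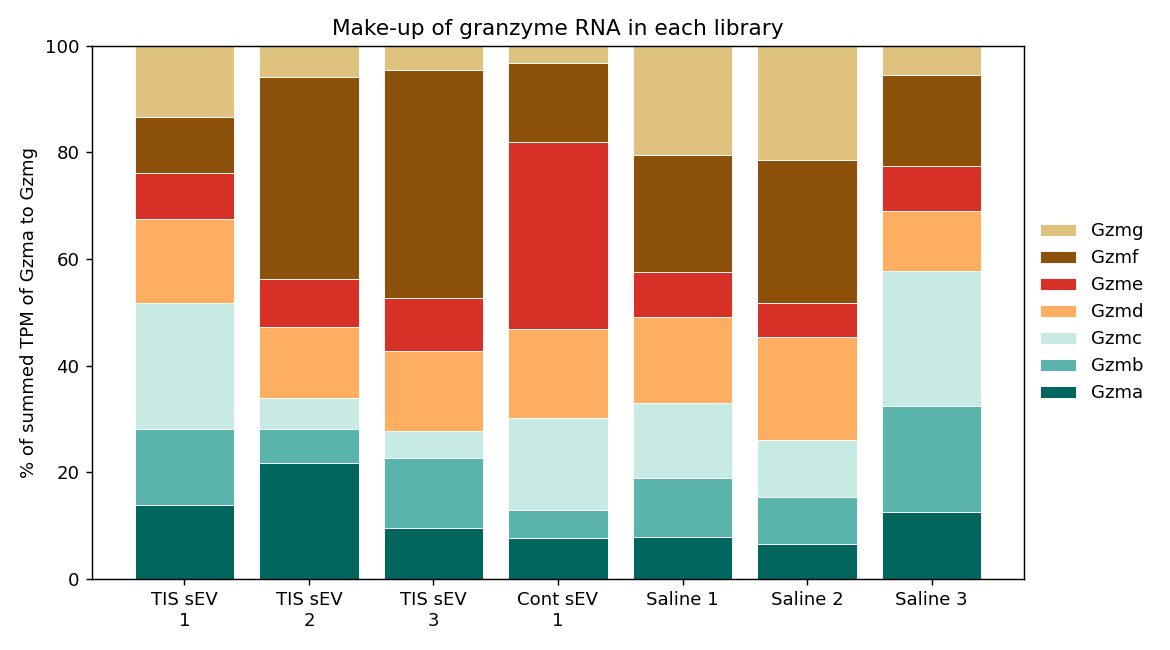
Share of each granzyme in the summed TPM of Gzma to Gzmg (vertical axis, percent, stacked from 0 to 100) in each library (horizontal axis: TIS sEV, Cont sEV, Saline). Gzme takes 35.2% in the Cont sEV library and 6.37% to 9.90% elsewhere, and Gzmf takes 37.9% and 42.7% in TIS sEV replicates 2 and 3.

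Perforin and Ctsw were lower than the granzymes in most libraries, and Nkg7 was among the higher members. Prf1 (chromosome 10, 61297833 to 61304680, plus strand), the pore former without which granzymes do not enter the target, was at 2.94, 0.165 and 3.77 TPM in TIS sEV, 1.36 TPM in Cont sEV and 1.63, 3.63 and 2.73 TPM in Saline. TIS sEV replicate 3 and Saline replicate 2 were nearly level at the top, and the groups overlapped. The log2 difference was -0.35 (SE 0.48, limma adjusted p = 0.652), and 0.28 without TIS sEV replicate 2.

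Nkg7 (chromosome 7, 43437073 to 43438249, plus strand), a membrane protein of cytotoxic granules that takes part in their release, was at 14.4, 3.19 and 22.97 TPM in TIS sEV, 7.22 TPM in Cont sEV and 7.93, 9.70 and 10.9 TPM in Saline. TIS sEV replicates 1 and 3 were above every Saline library and TIS sEV replicate 2 below every one. Ctsw (chromosome 19, 5465043 to 5468507, minus strand), the cysteine protease cathepsin W of CD8 T and NK cells, was at 3.78, 0.356 and 4.68 TPM in TIS sEV, 1.69 TPM in Cont sEV and 0.890, 2.19 and 2.82 TPM in Saline. It showed the same arrangement. The log2 differences were 0.15 for Nkg7 (SE 0.65, limma adjusted p = 0.888) and 0.23 for Ctsw (SE 0.48, limma adjusted p = 0.768), or 0.77 and 0.84 relative to the median gene. Both turned negative without TIS sEV replicate 1 (-0.057 and -0.036) and without TIS sEV replicate 3 (-0.37 and -0.16), and Ctsw also without Saline replicate 1 (-0.070).

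The receptors were low in most libraries. Klrk1 (chromosome 6, 129610323 to 129623864, minus strand) encodes NKG2D, an activating receptor for stress ligands on NK and T cells, and was at 2.30, 0.383 and 2.71 TPM in TIS sEV, 2.13 TPM in Cont sEV and 1.53, 2.17 and 2.58 TPM in Saline. Apart from TIS sEV replicate 2 its levels were nearly even, and it was the lowest member in 4 of the 7 libraries. Klrd1 (chromosome 6, 129591782 to 129598775, plus strand) encodes CD94, which pairs with NKG2 proteins to read a non-classical MHC molecule, and was at 3.56, 0.950 and 6.63 TPM in TIS sEV, 2.26 TPM in Cont sEV and 2.98, 2.81 and 2.64 TPM in Saline. In TPM the Saline libraries were within a factor of 1.13 of each other for Klrd1, the tightest of the 10 genes. TIS sEV replicates 1 and 3 were above them and Cont sEV and TIS sEV replicate 2 below. This held in TPM only. With size factors the factor was 1.63, wider than the 1.21 of Nkg7, and TIS sEV replicate 1 (2.86) was below Saline replicate 1 (2.94). The log2 differences of TIS sEV against Saline were -0.25 for Klrk1 (SE 0.47, limma adjusted p = 0.731) and 0.10 for Klrd1 (SE 0.53, limma adjusted p = 0.910). Klrk1 turned to 0.19 without TIS sEV replicate 2 and Klrd1 to -0.35 without TIS sEV replicate 3.

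Read across the set, no member had every TIS sEV library above every Saline library, an arrangement seen in 0.862% of all genes tested, and none had every TIS sEV library below, seen in 13.5%. TIS sEV replicates 1 and 3 were both above every Saline library for Nkg7, Ctsw and Klrd1, 3 of 10 members against 5.67% of all genes. This arrangement sets aside TIS sEV replicate 2, the library that stands apart, and the members are not independent of one another. The share is therefore a description and not a test, here and on the size-factor scale below. TIS sEV replicate 2 was the lowest library for 10 of 10 members, but it was so for 88.1% of all genes. The order of the genes within a library also varied. Gzmc led in TIS sEV replicate 1 and Saline replicate 3, Nkg7 in TIS sEV replicates 2 and 3, Gzme in Cont sEV and Gzmd in Saline replicates 1 and 2, while Prf1, Klrk1 or Ctsw came last in each. Summed over the 10 members the level was 136, 10.02 and 77.1 TPM in TIS sEV, 65.2 TPM in Cont sEV and 54.0, 111 and 67.6 TPM in Saline.

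With size factors TIS sEV replicate 2 lay within the Saline range for Gzma, Klrd1 and Ctsw and above it for Nkg7, and below it for Gzmb, Gzmc, Gzmd, Gzme, Prf1 and Klrk1. On that scale Nkg7 was at 11.6, 8.64 and 23.03 in TIS sEV, 7.32 in Cont sEV and 7.83, 6.48 and 7.43 in Saline, so every TIS sEV library was above every Saline library. It was the 1 member so arranged, against 10.4% of all genes tested, and none had every TIS sEV library below, against 13.5%. TIS sEV replicates 1 and 3 were both above every Saline library for Nkg7, Ctsw and Klrk1, 3 of 10 against 14.8%. The log2 difference of Nkg7, TIS sEV against Saline, was 0.80 (SE 0.34, limma adjusted p = 0.342). Klrd1 (0.58, SE 0.33, limma adjusted p = 0.413) and Ctsw (0.58, SE 0.40, limma adjusted p = 0.473) came next, and 0 of the 12058 genes passed on this scale, with 1763 at an unadjusted p under 0.05.

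With size factors and without TIS sEV replicate 2, a setting chosen after the data had been seen, the log2 differences were 1.10 for Nkg7 (SE 0.29), 1.06 for Ctsw (SE 0.28), 0.81 for Klrd1 (SE 0.34) and 0.74 for Gzma (SE 0.37), with limma adjusted p of 0.384, 0.384, 0.411 and 0.441. Of the 10 members 9 then lay above the median gene, all but Gzmc, which was at -0.063. No member passed, nor did any of the genes tested.

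**Figure D3:**
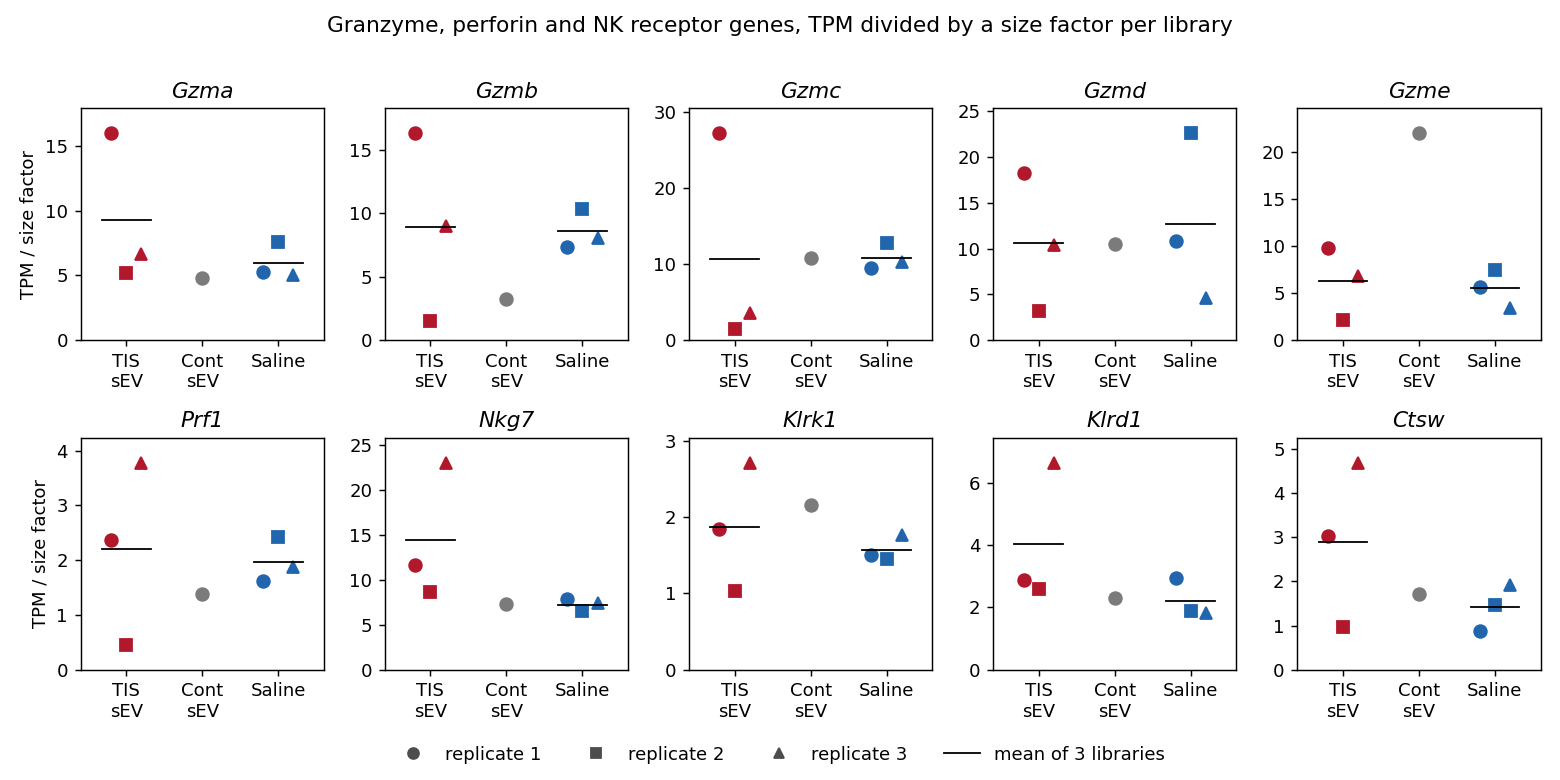
TPM divided by the size factor of the library (vertical axis, linear, from 0) for each of the 10 genes in the TIS sEV, Cont sEV and Saline libraries, with marker shape for the replicate number and a line at the mean of groups of 3. All 3 TIS sEV libraries of Nkg7 lie above its Saline libraries (8.64 to 23.03 against 6.48 to 7.83), and Gzmb, Gzmc and Prf1 are far lower in TIS sEV replicate 2 than in TIS sEV replicate 1.

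TIS sEV replicate 2 was below TIS sEV replicates 1 and 3 for each member on the size-factor scale. Its level as a share of the mean of TIS sEV replicates 1 and 3 was 9.29% for Gzmc, 11.9% for Gzmb, 14.6% for Prf1, 22.1% for Gzmd, 24.9% for Ctsw and 26.2% for Gzme. The same share was 45.5% for Klrk1, 46.1% for Gzma, 49.9% for Nkg7 and 54.1% for Klrd1, against 95.6% for the median of all genes tested, so 10 of 10 members were below it. It was the lowest library for Gzmb, Gzmc, Gzmd, Gzme, Prf1 and Klrk1, 6 of 10 members against 30.6% of all genes. The high share of ribosomal RNA in that library goes with these values, and its part in them was not tested.

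**Figure D4:**
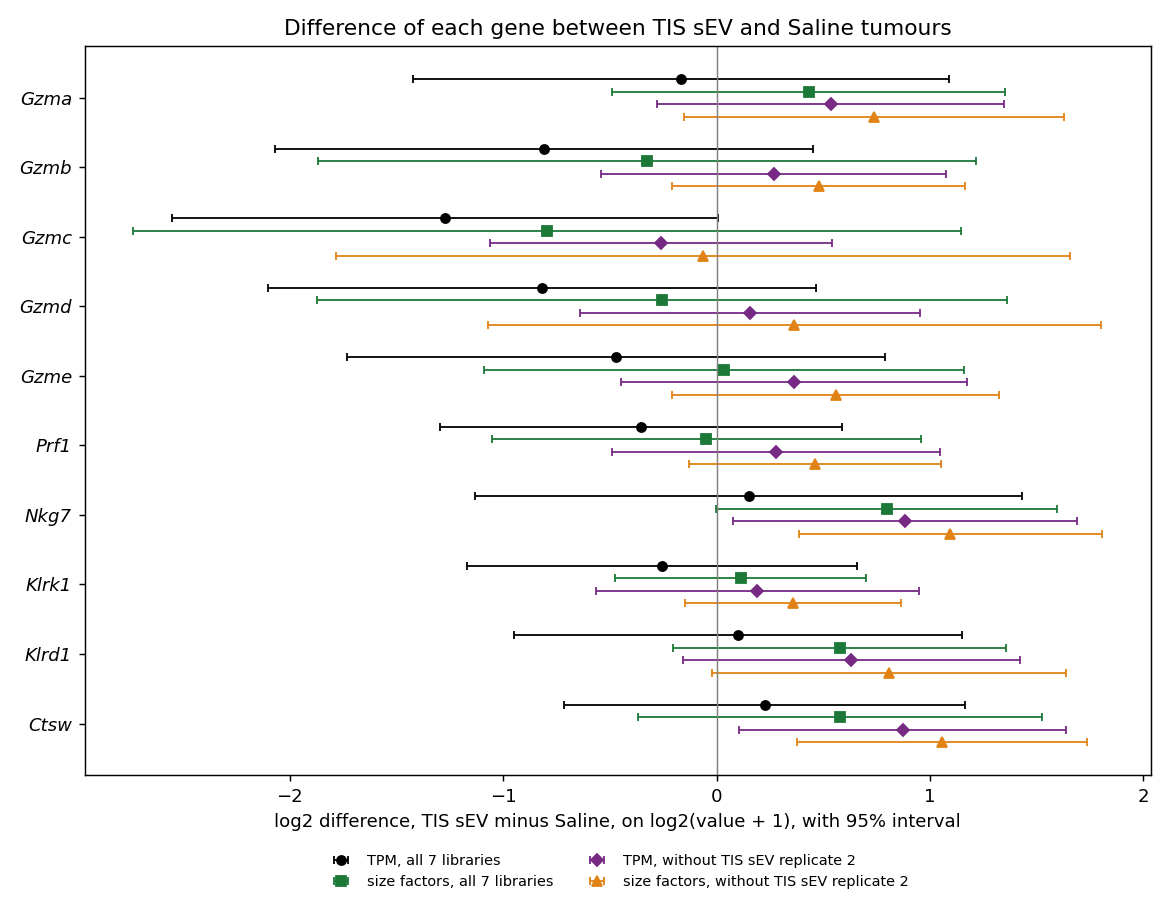
Fitted log2 difference of TIS sEV against Saline for each of the 10 genes (horizontal axis, log2 units) with its unadjusted 95% interval, from TPM and with size factors, each with all 7 libraries and without TIS sEV replicate 2. From TPM of all 7 libraries every interval spans 0, from Gzmc at -1.27 to Ctsw at 0.23, and without TIS sEV replicate 2 those of Nkg7 and Ctsw lie above 0 although neither gene passed the adjusted test.

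The Cont sEV tumour was set against the Saline tumours as a single library, assumed to vary like the other groups. No member passed: 0 of 10, against 0.207% of all genes tested, with no member at an unadjusted p under 0.05 either. The largest fitted differences were those of Gzmb (-1.53, SE 0.91, limma adjusted p = 1.00) and Gzme (1.52, SE 0.91, limma adjusted p = 1.00). Cont sEV was above every Saline library for Gzme alone, 1 of 10 members against 14.1% of all genes, and below every one for Gzma, Gzmb, Prf1, Nkg7 and Klrd1, 5 of 10 against 46.4%. With size factors the differences were -1.17 for Gzmb (SE 0.92, limma adjusted p = 0.616) and 1.87 for Gzme (SE 0.67, limma adjusted p = 0.357). On that scale Cont sEV was above every Saline library for Gzme and Klrk1, 2 of 10 against 35.9%, and below every one for Gzma, Gzmb and Prf1, 3 of 10 against 35.4%.

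In TIS sEV against Cont sEV, which shares its TIS sEV and Cont sEV libraries with the comparisons above, 0 of 10 members passed, against 0.224% of all genes. Gzme was the 1 member at an unadjusted p under 0.05, at -1.99 log2 units (SE 0.91, limma adjusted p = 1). Without TIS sEV replicate 2 it was -1.16 (SE 0.55, limma adjusted p = 1). In that setting Gzmb, which had a difference of 0.73 with all libraries (SE 0.91, limma adjusted p = 1), was at 1.80 (SE 0.55, limma adjusted p = 0.1096).

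The partners of these genes were followed in lists of the same pathway. Of the 5 other granzymes, 2 were tested and 0 passed for TIS sEV against Saline. Gzmf was at 15.1, 3.35 and 29.4 TPM in TIS sEV, 9.09 TPM in Cont sEV and 14.9, 47.2 and 10.1 TPM in Saline, and its log2 difference was -0.67 (SE 0.66, limma adjusted p = 0.559). Gzmg was at 19.1, 0.517 and 3.15 TPM in TIS sEV, 1.97 TPM in Cont sEV and 13.9, 37.7 and 3.20 TPM in Saline, with a difference of -1.42 (SE 0.63, limma adjusted p = 0.476). Neither separated the groups, and Gzmn was listed at 0 in every library.

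Of 13 genes for granule storage, processing and release and for granzyme inhibition, 12 were in the table, 11 were tested and 0 passed, with a median 0.18 above the median gene. The most abundant were Lamp1, a lysosomal membrane protein also found on granules, which differed by -1.05 log2 units (SE 0.60, limma adjusted p = 0.476), and Srgn, the proteoglycan that holds granzymes in the granule, at -0.53 (SE 0.60, limma adjusted p = 0.596). The serpin Serpinb6a was at -0.43 (SE 0.61, limma adjusted p = 0.659) and Stxbp2, a fusion protein for granule release, at -0.068 (SE 0.63, limma adjusted p = 0.948).

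Of 29 other NK receptors and adaptors 7 were tested and 0 passed, with 6 of the 7 above the median gene, while 20 stayed under 1 TPM in every library. The tested genes with the highest levels were the shared adaptors and Fc receptor parts that myeloid cells also use. Tyrobp, the adaptor DAP12, differed by -0.074 (SE 0.61, limma adjusted p = 0.942), Fcer1g, the common Fc receptor gamma chain, by 0.013 (SE 0.61, limma adjusted p = 0.989) and Fcgr3, an Fc receptor, by -0.23 (SE 0.63, limma adjusted p = 0.821). Hcst encodes DAP10, the adaptor through which NKG2D signals. It was at 11.2, 11.1 and 19.5 TPM in TIS sEV, 12.1 TPM in Cont sEV and 11.2, 9.97 and 8.09 TPM in Saline, and differed by 0.44 (SE 0.66, limma adjusted p = 0.678). Unlike the members, Hcst was not lowest in TIS sEV replicate 2.

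Of 10 ligands of these receptors 6 were in the table, and H2-T23, the Qa-1 molecule read by CD94 with NKG2A, was the 1 tested. It was at 494, 32.8 and 334 TPM in TIS sEV, 439 TPM in Cont sEV and 245, 354 and 481 TPM in Saline, and differed by -0.97 log2 units (SE 0.59, limma adjusted p = 0.476). Except for TIS sEV replicate 2 the libraries overlapped. The NKG2D ligands Raet1d, Raet1e, Ulbp1 and H60b reached at most 1.76 TPM, and H60c was listed at 0. Raet1a, Raet1b, Raet1c and H60a were not among the deposited genes. Their levels are unknown, so these values do not give the total level of NKG2D ligands.

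Of 7 death ligands and cytokines of killer cells 5 were tested and 0 passed. Ccl5, a chemokine made by activated T and NK cells, was at 60.8, 30.2 and 78.1 TPM in TIS sEV, 46.9 TPM in Cont sEV and 16.7, 29.1 and 28.1 TPM in Saline. Every TIS sEV library and the Cont sEV library were above every Saline library, TIS sEV replicate 2 included. With size factors Ccl5 was at 48.9, 82.0 and 78.4 in TIS sEV, 47.5 in Cont sEV and 16.5, 19.5 and 19.2 in Saline. All TIS sEV libraries were above all Saline libraries for 0.862% of genes tested in TPM and 10.4% with size factors. The log2 difference of Ccl5 in TPM, TIS sEV against Saline, was 1.10 (SE 0.65, limma adjusted p = 0.476). The chemokines Ccl4 (-0.33, SE 0.66, limma adjusted p = 0.749) and Ccl3 (-0.31, SE 0.66, limma adjusted p = 0.762) and the death ligand Tnfsf10 (-0.69, SE 0.53, limma adjusted p = 0.498) were the other three most abundant. Of 13 transcription factors and cytokine receptors of killer cells 7 were tested and 0 passed. Id2, a regulator needed for NK cell development, differed by 0.086 (SE 0.65, limma adjusted p = 0.936), Nfil3, another such factor, by -0.72 (SE 0.66, limma adjusted p = 0.537), the common cytokine receptor chain Il2rg by 0.0015 (SE 0.66, limma adjusted p = 0.999) and the interleukin-18 receptor chain Il18rap by -0.55 (SE 0.65, limma adjusted p = 0.613).

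Markers of the cells that could carry these transcripts were read in the same libraries. The summed TPM of 12 T cell markers was 52.4, 18.7 and 77.8 in TIS sEV, 31.6 in Cont sEV and 25.1, 38.9 and 47.1 in Saline. TIS sEV replicates 1 and 3 were above every Saline library, as for Nkg7, Ctsw and Klrd1. After division by size factors the sums were 42.1, 50.6 and 78.1 in TIS sEV, 32.0 in Cont sEV and 24.8, 26.0 and 32.2 in Saline. TIS sEV replicate 2, the lowest library in TPM, was on that scale above every Saline library, as were TIS sEV replicates 1 and 3. Single markers of TIS sEV replicate 2 were mixed on that scale. Cd3e (0), Cd247 (0.101) and Cd3g (5.37), among others, were below every Saline library and Cd3d (1.63) was within their range. Lck (6.22), Zap70 (2.68), Cd2 (2.55), Cd5 and Cd6, among others, were above every one. Of the 18.7 TPM in that library Trbc1 held 5.09 and Trbc2 5.59. Of the 9 T cell markers tested 0 passed, 9 of 9 lay above the median gene and their median was 0.77 above it. That count is from log2(TPM + 1), which shrinks differences of low genes. Cd3e, at 0 in TIS sEV replicate 2, was fitted at -0.19, against -0.62 for the median gene. The most abundant were Trbc2 (0.90, SE 0.65, limma adjusted p = 0.491) and Trbc1 (0.16, SE 0.63, limma adjusted p = 0.880) of the T cell receptor, Cd3g of its signalling complex (-0.14, SE 0.64, limma adjusted p = 0.893) and the kinase Lck (0.16, SE 0.58, limma adjusted p = 0.860).

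The CD8 markers Cd8a and Cd8b1, subunits of the co-receptor of cytotoxic T cells, summed to 7.98, 0.974 and 8.53 TPM in TIS sEV, 2.79 TPM in Cont sEV and 3.68, 4.49 and 6.13 TPM in Saline, again with TIS sEV replicates 1 and 3 highest and replicate 2 lowest. With size factors the order of these was kept, at 6.41, 2.64 and 8.55 in TIS sEV, 2.83 in Cont sEV and 3.63, 3.00 and 4.19 in Saline. Neither passed, with log2 differences of -0.058 for Cd8a (SE 0.51, limma adjusted p = 0.945) and 0.11 for Cd8b1 (SE 0.48, limma adjusted p = 0.889). None of the 4 markers of CD4 and regulatory T cells passed the filter, and their sum was 0.439 to 1.57 TPM in TIS sEV, 0.522 TPM in Cont sEV and 0.760 to 1.84 TPM in Saline.

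NK cell markers were near the floor, so the name NK receptor describes Klrk1 and Klrd1 by family and not by a measured NK cell content. The 8 NK cell markers summed to 0.290 to 4.91 TPM in TIS sEV, 3.46 TPM in Cont sEV and 3.93 to 7.17 TPM in Saline. Klra4 and Klra8 were listed at 0 in every library, and Ncr1, the defining NK receptor NKp46, reached 0.780 TPM at most. The 1 tested marker was Itga2, an integrin that other cells also carry, at -1.12 (SE 0.47, limma adjusted p = 0.463). The reads of BALB/c mice were set against a C57BL/6 reference, and the Klra and Klrb1 families are known to differ between these strains, which limits what a level of 0 says.

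The ratio of the granzymes to T cell markers separated libraries of the same group. The summed TPM of the 5 member granzymes over that of the 12 T cell markers was 2.08, 0.267 and 0.467 in TIS sEV, 1.60 in Cont sEV and 1.55, 2.34 and 0.976 in Saline. TIS sEV replicate 1 was within the Saline range and TIS sEV replicates 2 and 3 were below it. For Prf1, Nkg7 and Ctsw together the ratio was steadier, at 0.403, 0.199 and 0.404 in TIS sEV, 0.325 in Cont sEV and 0.415, 0.399 and 0.348 in Saline. The ratio of Gzmb to Nkg7 was 1.41, 0.175 and 0.392 in TIS sEV, 0.442 in Cont sEV and 0.936, 1.60 and 1.09 in Saline. These ratios are free of library scaling, they were chosen after the values had been seen, and no test was made of them.

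Other cell types moved with the libraries too. Mast cell markers, which matter here because mast cells also store proteases and can express Gzmb in mice, summed to 109, 10.98 and 109 TPM in TIS sEV, 12.2 TPM in Cont sEV and 17.5, 54.9 and 8.05 TPM in Saline. TIS sEV replicates 1 and 3 were above every Saline library, also with size factors, where TIS sEV replicate 2 was at 29.8, within the Saline range of 5.51 to 36.7. Of the 9 mast cell markers 6 were tested and 0 passed, with a median 2.25 above the median gene and with the tryptases Tpsb2 (1.90, SE 0.64, limma adjusted p = 0.251) and Tpsab1 (1.82, SE 0.64, limma adjusted p = 0.307), the chymase Cma1 (1.71, SE 0.56, limma adjusted p = 0.221) and Hdc, the enzyme that makes histamine (-0.43, SE 0.63, limma adjusted p = 0.673), as the most abundant. Of 8 B and plasma cell markers 3 were tested and 2 rose: Igkc, the kappa light chain constant region (3.91, SE 0.66, limma adjusted p = 5.03e-06), and Jchain, which joins antibody chains (1.73, SE 0.42, limma adjusted p = 0.0124), while Ighm, the heavy chain of IgM, was at 2.01 (SE 0.60, limma adjusted p = 0.118). With size factors, where no gene passed, neither Igkc nor Jchain did. The B and plasma cell sum was highest in TIS sEV replicate 2, at 148 TPM, the library in which all 10 members were lowest in TPM, against 29.4 and 79.6 TPM in TIS sEV replicates 1 and 3, 39.3 TPM in Cont sEV and 2.78 to 11.3 TPM in Saline.

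The remaining marker lists showed 0 genes passing. Ptprc, the pan-leukocyte gene CD45, was at 3.13, 0.510 and 2.44 TPM in TIS sEV, 2.33 TPM in Cont sEV and 2.78, 6.13 and 4.29 TPM in Saline, and differed by -0.91 log2 units (SE 0.53, limma adjusted p = 0.476). Macrophage markers summed to 503 to 1329 TPM in TIS sEV, 939 TPM in Cont sEV and 407 to 1287 TPM in Saline. With size factors the macrophage sum was 404, 1436 and 1333 in TIS sEV, 952 in Cont sEV and 401, 860.1 and 663 in Saline, with TIS sEV replicate 2 the highest library. In TPM neutrophil markers summed to 970 to 1769 TPM in TIS sEV, 495 TPM in Cont sEV and 1189 to 6084 TPM in Saline. For plasmacytoid dendritic cells the sums were 64.6 to 541 TPM in TIS sEV, 769 TPM in Cont sEV and 340 to 622 TPM in Saline. Fibroblast sums were 19.4 to 67.0 TPM in TIS sEV, 39.0 TPM in Cont sEV and 39.7 to 111 TPM in Saline, and endothelial sums 4.53 to 50.3 TPM in TIS sEV, 18.7 TPM in Cont sEV and 16.1 to 31.7 TPM in Saline. TIS sEV replicate 2 gave the lowest TIS sEV value of each list but the macrophage one. With size factors it was at 2628 for neutrophil markers (Saline 813 to 6008) and 52.5 for fibroblast markers (Saline 27.2 to 110). It was then at 12.3 for endothelial markers (Saline 11.7 to 21.2) and 175 for plasmacytoid dendritic cell markers (Saline 255 to 425). In the comparisons of Cont sEV with Saline and of TIS sEV with Cont sEV no gene of any pathway or marker list passed. The part of any of these cell types in the levels of the 10 members was not tested.

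**Figure D5:**
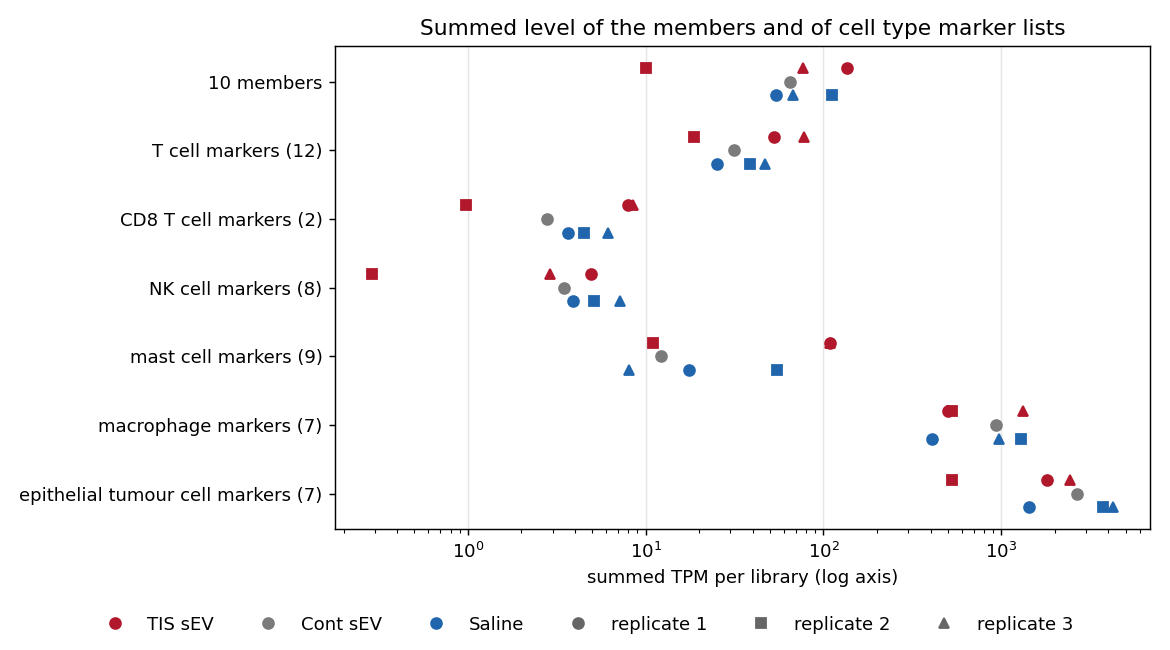
Summed TPM of the 10 members and of the markers of 6 cell types (horizontal axis, log scale) in the TIS sEV, Cont sEV and Saline libraries, which run from top to bottom within each row, with marker shape for the replicate number. T cell, CD8 T cell and mast cell sums are higher in TIS sEV replicates 1 and 3 than in every Saline library, and NK cell sums are at most 7.17 TPM.

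The members resembled each other only in part. Of the 10, Prf1 lay nearest to their median profile over the 7 libraries on the size-factor scale, with a root mean square distance of 0.198 log2 units, followed by Klrk1 at 0.281 and Ctsw at 0.337, while Gzme at 0.738 and Gzmc at 0.878 lay farthest from it. The median profile was 0.49, -0.76 and 0.41 log2 units from the mean in TIS sEV, -0.15 in Cont sEV and -0.12, 0.16 and -0.15 in Saline. Among 7216 other genes with a mean of at least 5 TPM, the nearest to that profile were Clba1 (0.119), Slc35f6 (0.159), Man2b2 (0.165), Qsox1 (0.171) and Ifrd2 (0.174). With 7 libraries, 1 of which stands apart, likeness of this kind is a description of these libraries.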

How the data were processed

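The authors deposited 1 table of gene TPM for the 7 libraries, and each column sums to 1000000. The submitters' processing notes list Salmon 1.4.0, Trim Galore 0.6.6, FastQC 0.11.9 and DESeq2 1.28.0, with build GRCm38.p6. The transcript annotation is not given in the sources used here. TPM keeps no depth.

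Gene names and coordinates came from GENCODE M21, in which 55227 of 55487 identifiers were found with the version dropped. Values were tested as log2(TPM + 1), a scale that shrinks differences of low genes, in limma 3.58.1 under R 4.3.3. The model had 1 mean for each group and 4 residual degrees of freedom, with the intensity trend. A gene was tested if 3 or more libraries held at least 1 TPM (12058 genes), with two-sided p-values adjusted by Benjamini-Hochberg over all of them at 0.05. Because limma's prior degrees of freedom came out infinite in the main fit, the spread used there for a gene was that of its expression level. With size factors this did not hold. For TIS sEV against Saline the SE was then 0.25 for Klrk1 and 0.43 for Prf1, genes of similar level, against 0.47 and 0.48 in the main fit. Standard errors and adjusted p-values of these fits are thus not directly comparable. The fit was run on simulated data with independent noise and large planted changes. Those data held no library-wide shift like that of TIS sEV replicate 2, so the run does not show how the fit deals with it. Alternatives were size factors, quantile normalization, rescaling to protein-coding TPM, another pseudocount, other filters, no trend, leaving out each library, a replicate block and summed copies.

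The members and lists were chosen with earlier results of these data known. All members are named, with up to 4 tested genes of highest mean TPM from the pathway lists and from T, CD8, NK, mast and B cell markers, every called gene of a list (other marker lists are given as sums), and the 5 genes of most similar profile.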

Additional observations from a re-analysis of the deposited data

How the results depend on the processing

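The count of called members was 0 in all 3 comparisons under every alternative run, with 1 exception: leaving out 1 library at a time gave 0 to 1 for TIS sEV against Saline, the 1 being Gzmc without TIS sEV replicate 1. The count over all genes depended on the processing. For TIS sEV against Saline, 62 genes were called, and 0 with size factors, quantile normalization, rescaling to protein-coding TPM or no filter, 9 with at least 1 TPM in every library, 39 without the intensity trend and 7 to 353 when leaving out 1 library. For Cont sEV against Saline, 25 were called, and 1 with size factors, 2 with quantile normalization, 2 with rescaling, 233 with no filter, 0 with at least 1 TPM in every library, 16 without the trend and 11 to 197 when leaving out 1 library. For TIS sEV against Cont sEV, 27 were called, and 1, 1, 2, 246, 0 and 12 under the same alternatives in that order, and 10 to 103 when leaving out 1 library. Size factors without TIS sEV replicate 2 gave 0, 1 and 1. The causes were not tested, apart from the smaller numbers of libraries or genes that some alternatives hold by construction. At least 1 TPM in every library left 3 members to test, since TIS sEV replicate 2 was below that for 7.

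The deviations of same-numbered replicates from their group means correlated at -0.38, -0.0085 and 0.080 for numbers 1, 2 and 3. TIS sEV replicate 1 correlated best with Saline replicate 3. Deviations within a group of 3 sum to 0, and TIS sEV replicate 2 stands apart. These correlations therefore cannot show whether the numbers pair libraries. With the replicate block, 13 genes and 0 members were called for TIS sEV against Saline.

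Directions of members that turned, none of which passed in either setting, were as follows. For TIS sEV against Saline, size factors gave log2 differences of 0.43 for Gzma, 0.034 for Gzme and 0.11 for Klrk1, quantile normalization gave 0.52, 0.12 and 0.19 for the same genes and 0.061 for Prf1, and rescaling gave 0.19 for Gzma. For Cont sEV against Saline, size factors gave 0.011 for Gzmc, 0.017 for Nkg7, 0.054 for Klrd1 and 0.19 for Ctsw, quantile normalization gave 0.0015, 0.082, 0.16 and 0.28, and rescaling gave -0.047 for Klrk1. For TIS sEV against Cont sEV, log2(TPM + 0.1) gave -0.0037 for Prf1. Size factors without TIS sEV replicate 2 gave 0.74 for Gzma, 0.48 for Gzmb, 0.36 for Gzmd, 0.56 for Gzme, 0.46 for Prf1 and 0.36 for Klrk1 against Saline, 0.37 for Gzmd and 0.039 for Klrk1 against Cont sEV, and for Cont sEV against Saline 0.015 for Gzmc, 0.021 for Nkg7, 0.060 for Klrd1 and 0.20 for Ctsw.

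Leaving out 1 library at a time, the log2 differences of TIS sEV against Saline ranged from -0.88 to 0.54 for Gzma, -1.62 to 0.27 for Gzmb, -2.52 to -0.26 for Gzmc, -1.57 to 0.16 for Gzmd, -1.08 to 0.36 for Gzme, -0.74 to 0.28 for Prf1, -0.37 to 0.88 for Nkg7, -0.52 to 0.19 for Klrk1, -0.35 to 0.63 for Klrd1 and -0.16 to 0.87 for Ctsw. Those of Cont sEV against Saline that turned ranged from -0.85 to 0.24 for Gzmd, -0.11 to 0.15 for Klrk1 and -0.38 to 0.13 for Ctsw. Those of TIS sEV against Cont sEV ranged from -0.27 to 1.15 for Gzma, -0.086 to 1.80 for Gzmb, -2.15 to 0.11 for Gzmc, -1.19 to 0.54 for Gzmd, -0.14 to 0.87 for Prf1, -0.031 to 1.23 for Nkg7, -0.55 to 0.16 for Klrk1, -0.13 to 0.86 for Klrd1 and -0.078 to 0.96 for Ctsw. The unknown depth, the 1 Cont sEV library and the make-up of TIS sEV replicate 2 limit all of these values.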
